A study of Homo sapiens with 4 samples.

Results

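The response of MDA-MB-231 breast cancer cells to CPYPP, a small molecule known as an inhibitor of DOCK guanine nucleotide exchange factors, was read from mRNA counts. MDA-MB-231 is an established line from a triple-negative breast carcinoma, and the study compared it with MDA-MB-435, an established melanoma line, to ask how cells that go on to a vacuolating form of death change their transcription. Each line was sequenced as an untreated control and after 10 µM CPYPP for 6 h, with 1 library per condition, and the labels give the genotype of every sample as WT. The growth and treatment descriptions of all samples name MDA-MB-435, so the cell line field was used to tell the lines apart, and the dose is that of the same description. Genes entered when at least 1 of the 2 MDA-MB-231 libraries held 10 or more counts, which kept 16441 of the 61806 genes in the table. At the edge of that rule, 305 genes had exactly 10 counts in their higher library and entered, and 389 genes had 9 and did not.

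The libraries held 22359735 counts on genes for the MDA-MB-231 control and 17196385 after CPYPP. With no replicate culture, the spread between cultures is unknown, and every interval below is a 95% exact (Clopper-Pearson) interval for counting error alone, so that a call compares these libraries and not the conditions. A gene is called higher when its normalised count after CPYPP is over 2 times the control and the interval lies above 1, and lower in the mirrored case. The label of the line was set against marker genes. All 11 markers of basal B breast cancer lines passed the count rule, but all 11 also reached 10 counts in each MDA-MB-435 library, so passing does not tell the lines apart. Among them EGFR had 12150 and 8161 counts here against 70 and 33 in MDA-MB-435, while CD44 had 27537 and 20016 against 36689 and 27990. SOX10, the neural crest factor of melanocytes, had 0 and 1 counts, against 3031 and 707 in the MDA-MB-435 libraries, and S100B had none. MITF is expressed here too, at 1585 and 690 counts, so 4 of the 10 melanocyte markers passed. Of the leukocyte and endothelial markers, 2 of 6 and 2 of 5 passed, led by PTPRC (36 and 9 counts) and KDR (112 and 64 counts). Of 8 luminal breast markers 5 passed, namely KRT19 (3953 and 2225 counts), ERBB2 (1318 and 921), CDH1 (837 and 464), EPCAM (387 and 287) and GATA3 (242 and 88), while the hormone receptors ESR1 (2 and 9) and PGR (1 and 0) and the factor FOXA1 (4 and 4) did not.

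Cells answer damaged protein and oxidants with separate programmes. Heat shock factor drives cytosolic chaperones from heat shock elements, NRF2 drives glutathione and thioredoxin genes from antioxidant response elements, and the kinases of the integrated stress response raise ATF4, which drives amino acid and redox genes. MDA-MB-231 cells also carry a basal invasive and inflammatory programme, with secreted proteases, cytokines, coagulation genes and AP-1 and YAP activity, for which they are widely used. After CPYPP, 694 genes were called higher (4.22% of those tested) and 542 lower (3.30%). Of these, 201 were over 4-fold higher and 118 over 4-fold lower, and 18 and 3 passed 10-fold. The median log2 fold change of all tested genes was −0.04. Low counts weigh on these totals, since 261 of the higher genes had fewer than 10 counts in the control and 238 of the lower genes fewer than 10 after CPYPP. Those genes could enter only through the library in which they were high. The genes nearest the 2-fold line were DDIT3 (2.01-fold, called higher) and ADAM28 (1.999-fold, not called). On the lower side they were MTMR8, called at 0.500 of the control, and FAT3, not called at 0.501.

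**Figure D1:**
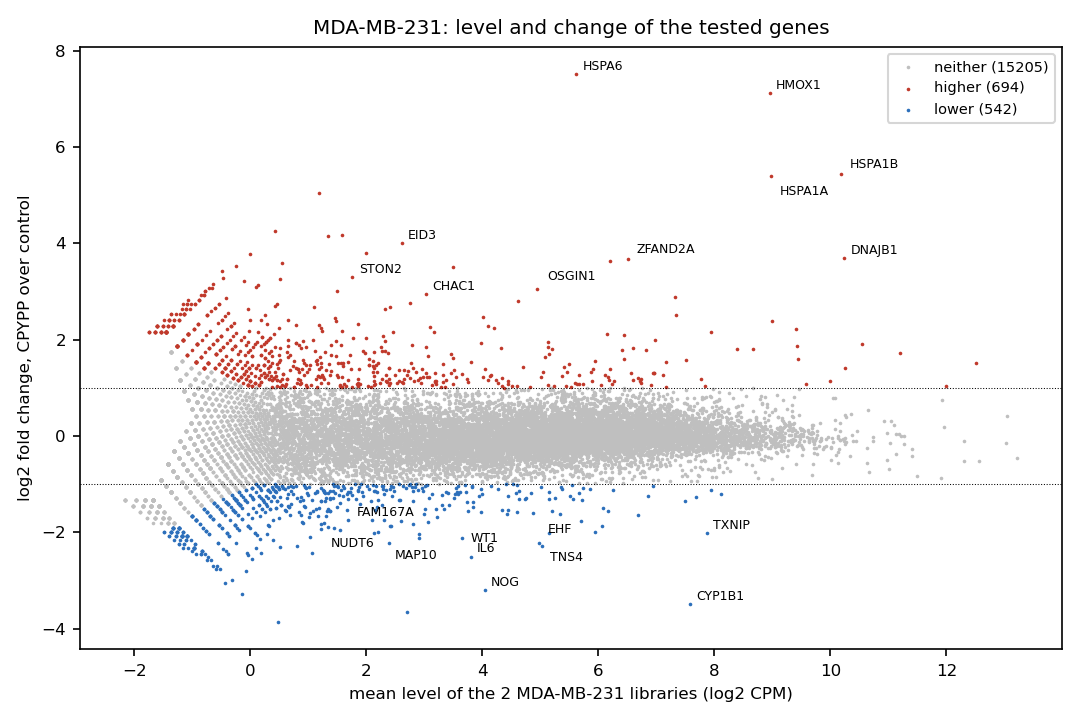
Mean level of the 2 MDA-MB-231 libraries (horizontal axis, log2 of CPM, counts scaled to a common library size) against the log2 fold change of CPYPP over control (vertical axis), 1 point per tested gene, coloured by call, with dotted lines at 2-fold. HSPA6, HMOX1, HSPA1A, HSPA1B and DNAJB1 stand above the other rises at their levels, and CYP1B1 is the most abundant of the genes over 10-fold lower.

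The largest rises were those of cytosolic chaperones and of the heme-degrading enzyme. HSPA6, an HSP70 gene that is nearly silent in unstressed cells, went from 12 to 1639 counts in MDA-MB-231, 182-fold (104 to 353), and from 1 to 67 counts in MDA-MB-435. Its level after CPYPP was thus 41.6 FPKM (CPM per kilobase of exon) here. Of 26 tested chaperone and co-chaperone genes, 13 were called higher and none lower, all 26 had a fold change above 1, and the list median was 1.01 on the log2 scale. All 13 were called higher in MDA-MB-435 too, where 3.0% of 16527 tested genes were. DNAJB1, an HSP40 co-chaperone, went from 3858 to 37645 counts (13.01-fold, 12.6 to 13.4), and ZFAND2A, a zinc finger protein of the heat shock response, from 296 to 2840 (12.8-fold, 11.3 to 14.5). HMOX1, which encodes heme oxygenase, went from 158 to 16468 counts, 139-fold (119 to 164). HSPA1A, HSPA1B, HSPA6, DNAJB1 and HMOX1 together took 0.0256% of the control library (0.0250% to 0.0263%) and 0.643% after CPYPP (0.639% to 0.647%). HSPA1A and HSPA1B are near-identical copies whose reads may be split between them.

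Among 30 tested NRF2-linked genes, 13 were called higher and none lower, every gene had a fold change above 1, and the median was 0.81. GCLM, the regulatory subunit of the enzyme that starts glutathione synthesis, went from 3619 to 14293 counts (5.26-fold, 5.08 to 5.46). SRXN1, which restores overoxidised peroxiredoxins, went from 137 to 719 counts (6.995-fold, 5.82 to 8.46). OSGIN1, an oxidative stress-induced growth inhibitor, went from 246 to 2274 counts (12.3-fold, 10.8 to 14.1). Of the 13 calls, 12 were shared with MDA-MB-435, and the exception was FTL, the ferritin light chain. FTL had 14290 and 23598 counts here (2.201-fold, 2.16 to 2.25), against 1680 and 2370 there (1.76-fold, 1.65 to 1.87). AKR1C1 and AKR1C3, aldo-keto reductases, stayed below the 2-fold line here at 1.60-fold (197 and 237 counts) and 1.48-fold (495 and 551). In MDA-MB-435 they were at 6.40-fold (44 and 226 counts) and 2.08-fold (116 and 194). Differences between the lines were not tested here or below, since each condition has 1 library. EID3, called 16.1-fold higher (16 and 193 counts), lies inside TXNRD1 on the same strand, and its reads cannot be told from those of that gene with certainty. TXNRD1 itself, thioredoxin reductase, had 24308 and 60158 counts (3.30-fold, 3.25 to 3.35).

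Promoter sequence of 4 genes that recur below is shown, because each was itself called and holds a motif usually tied to the pathway it is a known target of. The sequences are the 250 bases before the annotated start, from RefSeq on GRCh38.p14, written 5′ to 3′ on the strand of the gene. In HSPA6 the capitals mark the heat shock element (GAA, any 2 bases, TTC, any 2 bases and GAA), and in GCLM the core antioxidant response element TGACNNNGC. In CYP1A1 they mark the core xenobiotic response element GCGTG, and in IL6 the loose NF-kappaB letters (GGG, any 5 bases and CC), of which the lower stretch holds a pair of overlapping matches. Both strands were searched.
HSPA6, chr1:161524290-161524539, plus strand: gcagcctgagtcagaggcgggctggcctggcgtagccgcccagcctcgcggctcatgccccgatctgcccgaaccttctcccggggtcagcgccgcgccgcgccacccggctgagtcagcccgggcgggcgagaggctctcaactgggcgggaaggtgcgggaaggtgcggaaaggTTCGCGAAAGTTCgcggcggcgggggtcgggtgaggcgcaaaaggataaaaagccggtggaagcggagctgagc
GCLM, chr1:93909431-93909680, minus strand: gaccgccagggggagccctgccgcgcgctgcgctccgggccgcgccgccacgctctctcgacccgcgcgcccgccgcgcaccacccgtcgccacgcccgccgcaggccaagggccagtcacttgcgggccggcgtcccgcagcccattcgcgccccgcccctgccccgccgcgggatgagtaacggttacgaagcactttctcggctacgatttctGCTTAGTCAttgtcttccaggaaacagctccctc
CYP1A1, chr15:74725529-74725778, minus strand: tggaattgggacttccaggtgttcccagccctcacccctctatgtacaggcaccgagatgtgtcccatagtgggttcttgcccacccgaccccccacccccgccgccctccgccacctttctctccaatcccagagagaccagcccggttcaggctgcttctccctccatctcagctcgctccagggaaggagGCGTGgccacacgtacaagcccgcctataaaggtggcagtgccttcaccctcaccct
IL6, chr7:22726950-22727199, plus strand: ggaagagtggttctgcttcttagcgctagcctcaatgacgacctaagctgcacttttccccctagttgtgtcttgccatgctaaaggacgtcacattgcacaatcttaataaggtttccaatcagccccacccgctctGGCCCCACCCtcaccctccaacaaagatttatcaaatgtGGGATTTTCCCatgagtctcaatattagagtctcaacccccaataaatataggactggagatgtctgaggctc
The heat shock letters are rare, being found in 155 of 35116 promoter windows (0.441%) and in 4 of the 19 windows of the 13 higher chaperone genes, those of HSPA6, HSPA8, HSP90AA1 and CHORDC1. The antioxidant letters stand in 10.9% of all windows and in 3 of the 11 windows matched to 8 of the higher NRF2-linked genes. Of the 533 windows of all higher genes matched by symbol, 1.69% held the heat shock letters, and of the 384 windows of lower genes 0.260% did. The xenobiotic and NF-kappaB letters are common, in 32.2% and 54.4% of windows. A match is a description of the sequence and not evidence of binding.

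The integrated stress response was called in a smaller set of genes. Of 19 tested regulators, 5 were higher (ATF3, DDIT3, CHAC1, SESN2 and PPP1R15A) with a median of 0.56, against 12 and 1.44 in MDA-MB-435. CHAC1, which degrades glutathione, went from 42 to 242 counts here (7.68-fold, 5.52 to 10.9) and from 15 to 1054 there (87.5-fold, 52.8 to 157). DDIT4, an inhibitor of mTOR signalling, had 1186 and 1008 counts here (1.13-fold, 1.04 to 1.23), and 92 and 2066 there (28.0-fold, 22.7 to 34.8). ATF4 itself was at 1.48-fold here (3441 and 3810 counts) and 2.71-fold there (6689 and 14544). The MDA-MB-231 control already held DDIT4 at a count above that of the MDA-MB-435 control. Downstream, 1 of 12 amino acid synthesis and one-carbon genes was called here, the asparagine synthetase ASNS (14 and 84 counts, 7.997-fold, 4.51 to 15.3), and 3 of 12 there. Of 12 amino acid transporters, only SLC7A11 was called here, and 4 were called there. SLC7A5, the large neutral amino acid transporter, had 18458 and 10506 counts here (0.759 of the control, 0.741 to 0.777) and 1888 and 6777 there (4.47-fold, 4.25 to 4.71). None of 20 cytosolic tRNA synthetases was called here, and 1 was there.

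Protein turnover genes moved little beside the chaperones. None of 31 proteasome subunits was called, although 30 had a fold change above 1, and the median was 0.16. FBXO30, an F-box ubiquitin ligase subunit, went from 1076 to 4632 counts (5.74-fold, 5.37 to 6.14). Among 24 tested chaperones and degradation factors of the endoplasmic reticulum, DNAJB9 and HERPUD1 were called higher, and the median was 0.07. SQSTM1, GABARAPL1 and TFEB were the 3 higher genes of 20 autophagy genes. TFEB, the lysosomal transcription factor, had 51 and 81 counts here (2.12-fold, 1.47 to 3.07) and 216 and 118 in MDA-MB-435 (0.680 of the control, 0.539 to 0.855). Of 6 tested metallothionein and zinc export genes none was called, and MT2A had 2312 and 1020 counts (0.588, 0.546 to 0.633).

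Of 16 tested cytokine and chemokine genes, 6 were called lower and 1 higher, with a median of −0.66, where 3.30% of all genes were lower. This was the lowest of the list medians, but genes that entered through the control library alone weigh on it. With at least 10 counts in both libraries it was −0.48, and the aryl hydrocarbon receptor list lay below it at −0.53. The mRNAs of the mitochondrial genome, at −0.52 under the main rule, lay below it too. The metallothionein and zinc export list was at −0.48 as well with that filter. In MDA-MB-435, 11 were tested, 3 were higher and 4 lower (7.12% of all genes there), and the median was −0.22. IL6, the pleiotropic cytokine that this line secretes, went from 530 to 70 counts, 5.68-fold lower (4.42 to 7.40), and had 1 and 0 counts in MDA-MB-435. CXCL1, a neutrophil-attracting chemokine, went from 62 to 15 counts (3.10-fold lower, 1.74 to 5.87). PTGS2, the inducible cyclooxygenase, went from 50 to 17 (2.21-fold lower, 1.251 to 4.08). The interval of PTGS2 is wide at these counts, as it is for CXCL10 (25 and 6) and CCL5 (27 and 7). CXCL3 was the higher gene, at 14 and 22 counts, with an interval that starts at 1.02. CXCL8, the neutrophil chemokine interleukin-8, was not called here at 630 and 753 counts (1.59-fold, 1.43 to 1.77), and was called higher in MDA-MB-435 at 1520 and 8303 (6.80-fold, 6.44 to 7.19).

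The NF-kappaB subunit and feedback list had 15 of 18 genes below 1 here and 15 of 18 above 1 in MDA-MB-435, with medians of −0.19 and 0.21. BCL3, a nuclear IkappaB protein, was the sole call here, from 185 to 38 counts (3.65-fold lower, 2.56 to 5.32), and it was called lower in MDA-MB-435 as well (321 and 53 counts). NFKBIA, the inhibitor that NF-kappaB itself induces, had 1015 and 836 counts here (1.10-fold, 1.00 to 1.20) and 643 and 1223 there (2.37-fold, 2.15 to 2.61). ICAM1, an adhesion molecule under NF-kappaB control, had 1285 and 558 counts here (0.579, 0.523 to 0.640) and 3554 and 2875 there (1.01, 0.959 to 1.06). None of 23 interferon-response genes was called in either line, with medians of −0.14 and −0.03. Outside the lists, 3 lower genes with roles in inflammation were named after their values were seen. NLRP3, the inflammasome sensor, went from 43 to 6 counts (5.38-fold lower, 2.28 to 15.5), and LTB, lymphotoxin beta, from 38 to 10 (2.85-fold lower, 1.39 to 6.42). Neither had a count in MDA-MB-435. PTX3, a secreted pattern recognition protein, went from 1807 to 396 (3.42-fold lower, 3.07 to 3.83).

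Genes of the aryl hydrocarbon receptor, the ligand-activated factor that detects planar aromatic compounds, gave the largest fall at a high level. CYP1B1 (ENSG00000138061, chromosome 2, 38066973 to 38109902), a cytochrome P450 that is a standard reporter of this receptor, went from 7887 to 525 counts, 11.3-fold lower (10.3 to 12.3). Its level went from 59.1 to 5.24 FPKM, and neither MDA-MB-435 library held a count for it. CYP1A1, the other classical reporter, went from 290 to 63 counts (3.45-fold lower, 2.62 to 4.61) here and from 141 to 52 (2.18-fold lower, 1.57 to 3.05) in MDA-MB-435. TIPARP, also induced by the receptor, was at 0.692 of the control here (2494 and 1294 counts) and 0.677 there (3103 and 1686). Transcripts of the receptor AHR (2306 and 2339 counts, 1.35-fold, 1.28 to 1.43) and of its partner ARNT (1009 and 803, 1.06-fold, 0.966 to 1.16) were not called. Of the 8 tested genes of this list 2 were lower and 1 higher, with a median of −0.51. Of 6 tested in MDA-MB-435 1 was lower and 5 lay below 1, and the median was −0.51 there too. AHRR, the repressor of the receptor, had 0 counts in the control and 11 after CPYPP, at least 4.89-fold higher against a floor of 3 counts. CYP24A1, the vitamin D hydroxylase and another cytochrome P450, went from 104 to 20 counts (3.90-fold lower, 2.40 to 6.65) and had no count in MDA-MB-435.

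Immediate early genes were called higher at low counts. Of 22 tested, 6 were higher and none lower (FOS, FOSB, EGR1, NR4A1, ZFP36 and BTG2), and the median was 0.33. Of 22 tested in MDA-MB-435, 4 were higher and 2 lower, and the median was 0.46. FOS, the AP-1 subunit, had 30 and 71 counts (3.15-fold, 2.03 to 5.01), FOSB 18 and 64 (4.74-fold, 2.77 to 8.50) and EGR1, a growth factor-induced zinc finger factor, 83 and 159 (2.55-fold, 1.95 to 3.37). In MDA-MB-435, FOS and BTG2 were called as well, while FOSB (62 and 93 counts), EGR1 (43 and 63), NR4A1 (251 and 307) and ZFP36 (240 and 345) were at 1.52-fold to 1.87-fold and not called. MYC had 2644 and 2162 counts here (1.09-fold, 1.03 to 1.15) and 1773 and 3107 there (2.18-fold, 2.06 to 2.31). The feedback genes of the MAP kinase pathway split. The phosphatases DUSP1 (1658 and 3579 counts, 2.88-fold, 2.71 to 3.05) and DUSP5 (902 and 1782, 2.63-fold, 2.43 to 2.86) were higher. The receptor signalling antagonists SPRY1 (242 and 82, 2.21-fold lower, 1.72 to 2.88) and SPRY2 (1682 and 499, 2.53-fold lower, 2.29 to 2.80) were lower. SPRY1, SPRY2 and DUSP1 went the same way in MDA-MB-435, where DUSP5 was at 1.74-fold (616 and 863).

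CCN2 (ENSG00000118523, chromosome 6, 131948176 to 131951372), the connective tissue growth factor and a common readout of YAP and TGF-beta, went in opposite directions in the lines. Its counts went from 4043 to 10575 in MDA-MB-231 (3.49-fold, 3.36 to 3.62) and fell from 1001 to 296 in MDA-MB-435 (0.368 of the control, 0.322 to 0.420). Of the 18 genes with opposite calls, CCN2 and ATP9A, a phospholipid flippase, were the only ones with a mean of at least 50 counts in MDA-MB-231. ATP9A had 162 and 298 counts here (2.45-fold, 2.02 to 2.99) and 411 and 160 there (0.485, 0.401 to 0.583). None of the other 15 tested YAP-linked genes was called higher. AJUBA, a LIM-domain scaffold of the Hippo pathway, was called lower (5787 and 1712 counts, 2.54-fold lower, 2.40 to 2.68) and 14 were not called. F3, tissue factor, had 45864 and 20342 counts (0.591, 0.581 to 0.601) and ANKRD1, a cardiac ankyrin repeat protein, 23272 and 21067 (1.21-fold, 1.18 to 1.23). Among 22 TGF-beta and BMP genes BMP6 alone was called, at 18 and 31 counts. NOG (ENSG00000183691, chromosome 17, 56593699 to 56595611), which encodes the secreted BMP antagonist noggin and was not on that list, went from 665 to 54 counts, 9.24-fold lower (6.995 to 12.4), against 6 and 8 counts in MDA-MB-435.

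The invasion and state lists each held 1 call. Of 14 tested proteases and inhibitors, PLAU, the urokinase that this line makes in quantity, was the sole call, from 7489 to 2582 counts (2.18-fold lower, 2.08 to 2.28). It was also lower in MDA-MB-435, where it had 260 and 77 counts. C10orf55, which overlaps PLAU on the opposite strand, was called lower as well (53 and 8 counts), and no strand setting is given for the counts. Of 15 epithelial and mesenchymal genes, SNAI1, the repressor of E-cadherin, was the sole call (19 and 65 counts, 4.56-fold, 2.70 to 8.05). None of 15 DOCK, ELMO and RAC genes was called, and DOCK2, the family member that CPYPP is named for inhibiting, had 649 and 505 counts (1.04-fold, 0.921 to 1.17). Of 21 Notch and Wnt genes, NOTCH3 (16 and 40), NRARP (18 and 48) and AXIN2 (30 and 51) were higher and RNF43 (33 and 10) lower, all at low counts. In MDA-MB-435, 15 of the list could be tested, and 1 was higher and 1 lower, neither of them among these 4.

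Of 15 tested p53-linked and growth arrest genes, 4 were higher and 1 lower, with a median of 0.33. CDKN1A, the cyclin-dependent kinase inhibitor p21, went from 1599 to 2948 counts (2.46-fold, 2.31 to 2.61) and GADD45A from 1219 to 2257 (2.47-fold, 2.30 to 2.65), and both were called higher in MDA-MB-435. CDKN1B, the inhibitor p27, went the other way, from 1397 to 514 counts (2.04-fold lower, 1.84 to 2.26). None of 30 genes of G2/M and the spindle was called, yet 29 had a fold change below 1 and the median was −0.34, with PLK1 at 3218 and 1331 counts (0.551, 0.517 to 0.588). In MDA-MB-435 the G2/M and spindle list had a median of −0.20, with 24 of 30 genes below 1 and 1 called lower. The medians of 13 G1 genes and 26 replication genes were −0.20 and −0.17 here, and 0.05 for each list in MDA-MB-435. BMF, a pro-apoptotic member of the BCL2 family, was the sole call of 17 in its list (41 and 13 counts). SESN3, a sestrin that restrains mTOR signalling, went from 42 to 133 counts (4.22-fold, 2.96 to 6.12), and GADD45G had 7 and 15.

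Few hypoxia-linked and lipid genes were called. ADM, the vasodilator peptide adrenomedullin, went from 1120 to 3362 counts (4.001-fold, 3.74 to 4.28) here and from 1252 to 1796 (1.79-fold, 1.66 to 1.92) there. SLC2A3, a glucose transporter, went from 561 to 1054 (2.50-fold, 2.26 to 2.78) here and from 493 to 606 (1.53-fold, 1.36 to 1.73) there. SLC2A1, the widely expressed glucose transporter, had 12464 and 5103 counts (0.546, 0.528 to 0.564), not past the 2-fold line. Of 26 glycolysis and hypoxia genes ADM and SLC2A3 were the 2 called, against 4.22% of all genes higher, and of 24 tested in MDA-MB-435 none was, where both lay above 1 with their intervals. ANGPTL4, an inhibitor of lipoprotein lipase, was the call among 13 lipid genes (128 and 199 counts, 2.07-fold, 1.65 to 2.61). None of 22 cholesterol genes was called. TXNIP, which binds thioredoxin and limits glucose uptake, was among the largest falls named in MDA-MB-231, with 8408 and 1550 counts (4.07-fold lower, 3.85 to 4.30). In MDA-MB-435 it was called lower as well, with 1505 and 306 counts (3.95-fold lower, 3.49 to 4.48).

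The lists not yet described held few calls. EGF, the epidermal growth factor, was the sole call of 11 genes of its family (46 and 104 counts, 3.01-fold, 2.11 to 4.36), and ITGB8, an integrin that activates TGF-beta, that of 16 adhesion receptors (44 and 16). Of 19 glucocorticoid-linked and clock genes, CIART was higher (7 and 14 counts) and DBP lower (21 and 5). None of 20 transcription kinase genes, 13 tubulins or 11 histone genes was called, with medians of 0.14, −0.10 and 0.45. Outside the lists, STON2, an endocytic adaptor, was among the 10 largest rises (14 and 103 counts, 9.81-fold, 5.59 to 18.6, against 15 and 26 counts and 2.16-fold in MDA-MB-435), and FAM167A among the 10 largest falls (269 and 49 counts, 4.12-fold lower, 3.03 to 5.71, against 50 and 8).

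Most genes of the translation and mitochondrial lists moved in 1 direction in MDA-MB-231, by amounts that differed between the lists. Of 82 cytosolic ribosomal protein genes, 80 had a fold change below 1 here, with a median of −0.15, and 78 of 82 lay above 1 in MDA-MB-435, with a median of 0.16. None was called. The medians of 25 snoRNA host genes were −0.31 and 0.08, with 1 called lower in MDA-MB-231, and those of 17 splicing genes −0.23 and 0.20. All 13 mRNAs of the mitochondrial genome were below 1 in each line, with medians of −0.52 and −0.54, and their share of the counts went from 4.55% (4.54% to 4.55%) to 3.02% (3.02% to 3.03%) in MDA-MB-231. Of 465 zinc finger genes named ZNF, 9 were higher and 11 lower, with a median of 0.06, and 17 and 24 of 424 were so in MDA-MB-435. Among gene types, 3.25% of 12920 protein-coding genes were higher and 2.04% lower. For 700 lincRNA genes, most of them at low counts, these shares were 6.71% and 10.1%, and for 977 antisense genes 7.06% and 9.01%.

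**Figure D2:**
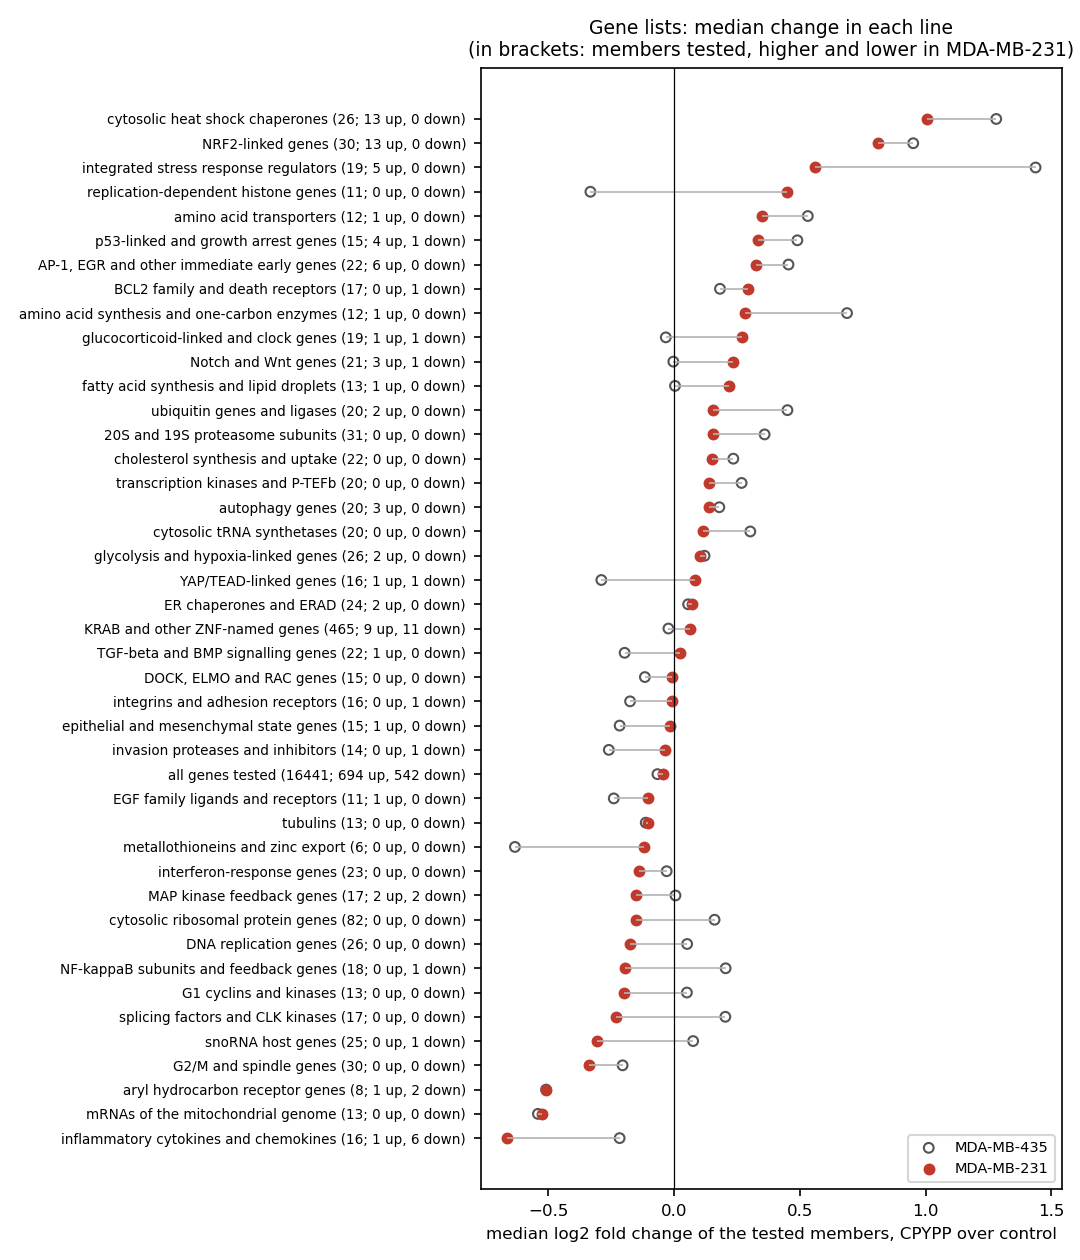
Median log2 fold change of the tested members of each gene list (horizontal axis) in MDA-MB-231 (filled) and MDA-MB-435 (open), ordered by MDA-MB-231, with the row of all tested genes included. Heat shock, NRF2-linked and integrated stress response genes stand highest in MDA-MB-231 at 1.01, 0.81 and 0.56, and the cytokine list lowest at −0.66, while the list medians of all other lists lie between −0.52 and 0.45.

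Of the 694 higher genes, 483 could be tested in MDA-MB-435 and 143 were called higher there, 17 lower. Of the 542 lower genes, 370 could be tested and 154 were called lower there, 1 higher. A response was set apart as weak in the other line when the whole interval in MDA-MB-435 lay within 1.5-fold of no change in either direction. Of 7611 such genes, 45 were called higher after CPYPP in MDA-MB-231 (0.591%) and 17 lower (0.223%), which are 45 of the 694 higher and 17 of the 542 lower genes. A narrow interval in MDA-MB-435 needs high counts there, so these shares are not comparable in level with those of all genes.

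The 10 largest rises with a mean of at least 50 counts in this set were modest in size. NCR3LG1, a surface ligand of an activating natural killer cell receptor, went from 45 to 150 counts here (4.44-fold, 3.17 to 6.35), while it had 689 and 563 in MDA-MB-435 (1.02, 0.909 to 1.14). DDR2, a receptor tyrosine kinase for collagen, went from 79 to 169 counts (2.85-fold, 2.17 to 3.77) against 2375 and 2475 (1.30, 1.23 to 1.37). Both are thus far less expressed here, in the control, than in the other line. CAMKK1, a kinase upstream of the calmodulin kinases, had 131 and 235 counts (2.39-fold, 1.92 to 2.98), and RDH10, the retinol dehydrogenase of retinoic acid synthesis, 217 and 379 (2.33-fold, 1.97 to 2.76). GPAT3, an acyltransferase of triglyceride synthesis, was at 11.9 and 27.6 FPKM, with 961 and 1673 counts (2.32-fold, 2.14 to 2.51) against 2206 and 2370 in MDA-MB-435 (1.34, 1.26 to 1.42). SMCR8, a partner of C9orf72 in autophagy and endolysosomal traffic, had 1467 and 2429 counts (2.21-fold, 2.07 to 2.36) against 1437 and 1473 (1.28, 1.19 to 1.37). Glucose handling is the work of TIGAR, a phosphatase that slows glycolysis, at 99 and 163 counts (2.19-fold, 1.70 to 2.85), and of HKDC1, a hexokinase, at 276 and 443 (2.14-fold, 1.84 to 2.50). CLDN15, a claudin of tight junctions, had 105 and 195 counts (2.48-fold, 1.94 to 3.17). SH3BP5, an exchange factor for RAB11, had 85 and 154 counts and overlaps SH3BP5-AS1 on the opposite strand (105 and 184 counts), which was called as well. RDH10 overlaps RPL7 and SMCR8 overlaps SHMT1, each on the opposite strand.

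The falls of this set were led by metabolic enzymes in level. UGCG, glucosylceramide synthase, the entry to glycosphingolipids, went from 8657 to 2828 counts (2.30-fold lower, 2.201 to 2.40) here and from 4173 to 2876 in MDA-MB-435 (0.858 of the control, 0.818 to 0.900). CPOX, coproporphyrinogen oxidase of heme synthesis, went from 3645 to 1158 counts (2.36-fold lower, 2.21 to 2.53) against 2751 and 1995 (0.903, 0.852 to 0.957). LIAS, which makes the lipoic acid of mitochondrial dehydrogenases, had 167 and 60 counts (2.09-fold lower, 1.55 to 2.85), and DDX28, an RNA helicase of mitochondrial ribosome assembly, 216 and 73 (2.22-fold lower, 1.70 to 2.94). DDX28 overlaps DUS2 and ZNF319 (226 and 78 counts) overlaps USB1 on the opposite strand. SLCO4A1, an organic anion transporter, had the largest fall among those with a mean of at least 50 counts, from 89 to 18 counts (3.71-fold lower, 2.22 to 6.54), against 1315 and 935. SLCO4A1 overlaps SLCO4A1-AS1 on the opposite strand. ERCC5, the endonuclease of nucleotide excision repair, had 78 and 23 counts (2.54-fold lower, 1.58 to 4.25). CDKN1B, described above, KBTBD6, a ubiquitin ligase adaptor (428 and 155 counts), and FAM110A (162 and 59) made up the 10. Below the count limit, STEAP1B (26 and 2 counts here against 490 and 357) and FGF2, the basic fibroblast growth factor (22 and 2 against 1462 and 1100), were further from the control. Both were named after their values were seen, FGF2 because NUDT6, one of the 10 largest falls in MDA-MB-231 (192 and 31 counts, 4.65-fold lower, 3.17 to 7.03), overlaps it on the opposite strand. STEAP1B in turn overlaps IL6 on the opposite strand (530 and 70 counts here, 1 and 0 in MDA-MB-435). The few reads of STEAP1B here cannot be told from those of IL6 with certainty.

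**Figure D3:**
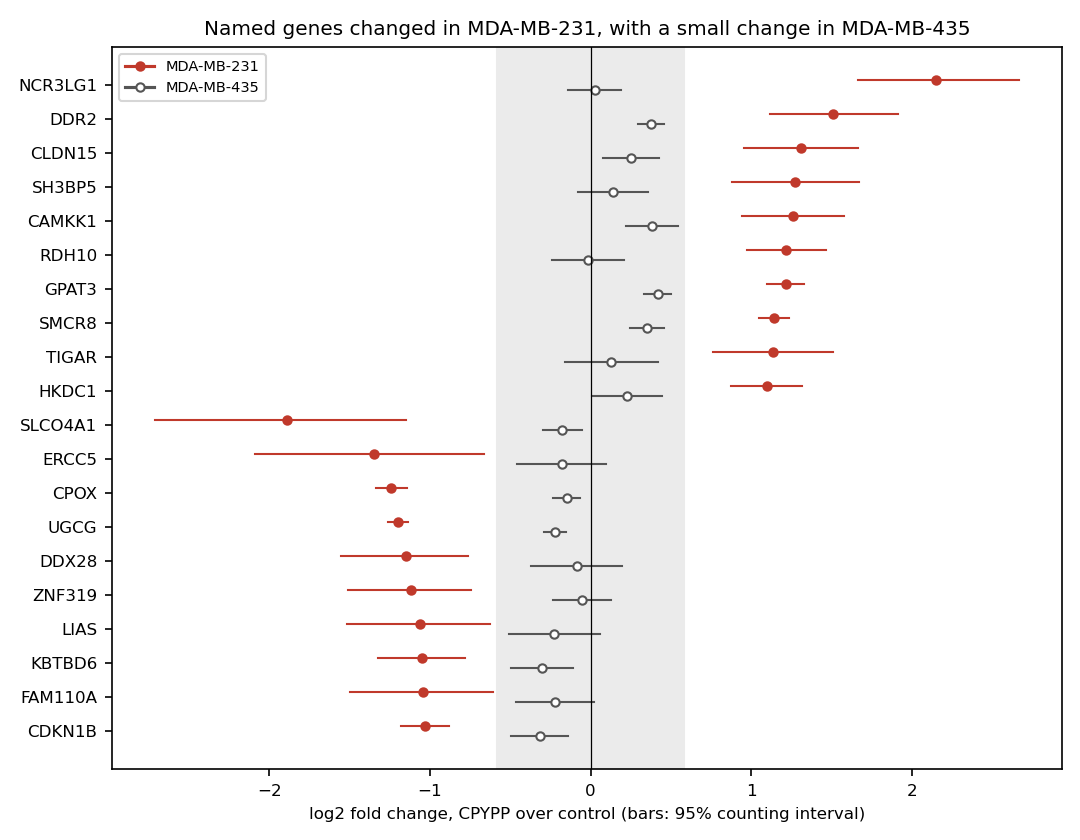
Log2 fold change of CPYPP over control (horizontal axis) with 95% counting intervals for the 10 rises and 10 falls named from the genes with a small change in MDA-MB-435; filled points are MDA-MB-231, open points MDA-MB-435, and the grey band is 1.5-fold in either direction. Every open point with its interval lies in the band by the rule, and the filled points lie outside it, with FAM110A and LIAS reaching closest to it by their intervals.

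Genes expressed far more in this line than in the other were taken as those with a mean of at least 1 CPM in MDA-MB-231 and at least 20 times the mean of MDA-MB-435. Of 993 such line-restricted genes, 833 protein-coding, 34 were higher after CPYPP (3.42%) and 67 lower (6.75%). The other line is not silent for all of them, since 145 reached 10 counts in at least 1 of its libraries. Of the other 12893 genes with at least 1 CPM, 2.85% were higher and 1.95% lower. The split depended on level, since from 1 to 10 CPM the shares lower were 7.43% of 552 restricted and 5.22% of 3847 other genes, and the shares higher 4.89% and 6.81%. From 10 CPM up they were 5.90% of 441 (26 genes) and 0.553% of 9046 (50 genes). The shares higher at that level were 1.59% and 1.17%. The median log2 fold change of the restricted genes was −0.11, against −0.03 for the others, and 59.8% and 53.8% of them lay below 1. The mirror set in the other line, 613 genes restricted to MDA-MB-435, also had more lower genes there after CPYPP (13.4%) than the remaining genes of that line (4.84%), while 1.63% and 2.36% were higher. These shares rest on counting error alone and the difference between the sets was not tested. The mean takes in control and CPYPP libraries, so a gene that fell or rose could meet the limits through its higher library alone.

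**Figure D4:**
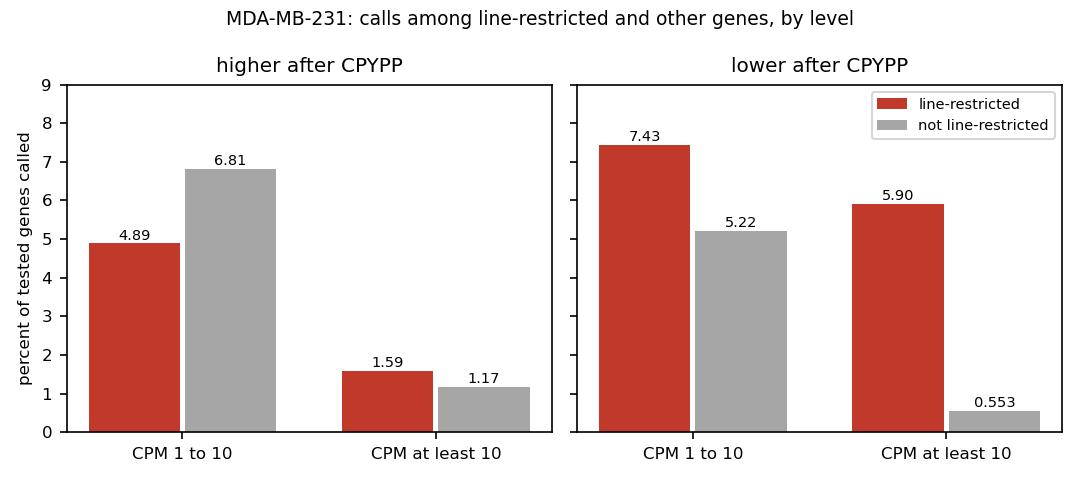
Percent of tested genes called in MDA-MB-231 (vertical axis) by level class (horizontal axis, mean CPM of the 2 MDA-MB-231 libraries), for line-restricted genes (red) and the others (grey), higher in the left panel and lower in the right. The widest gap is for lower genes at 10 CPM or more, 5.90% against 0.553%.

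Of the 67 restricted genes that fell, 48 had at most 3 counts in each MDA-MB-435 library, so that a change there could not be read. Of the 10 that could be tested there 5 were lower, where 7.12% of all tested genes were. Among those with a mean of at least 50 counts CYP1B1, NOG and IL6, described above, had the largest falls. Below that limit lay GPR15, a G protein-coupled receptor of leukocyte homing (58 and 3 counts), and ETV7, an ETS factor (39 and 5), both named after their values were seen. TNS4 (ENSG00000131746), a tensin that links integrins and growth factor receptors to the cytoskeleton, went from 1211 to 185 counts (4.91-fold lower, 4.20 to 5.76). EHF (ENSG00000135373), an epithelial ETS factor, went from 1157 to 186 (4.67-fold lower, 3.99 to 5.48), against 38 and 18 in MDA-MB-435. NOG and EHF met the limit against MDA-MB-435 only with their control level. Their level after CPYPP alone, 3.23 and 11.1 CPM, lay below it. Others of the 67, such as ATOH8 and DMBT1, did so too. Some, such as GPR15 (0.179 CPM after CPYPP), passed the limit of 1 CPM in the same way. MAP10, a microtubule-associated protein, went from 274 to 47 (4.37-fold lower, 3.2004 to 6.09). The transcription factor WT1 had 458 and 79 counts (4.35-fold lower, 3.42 to 5.595), FOXQ1 1364 and 333 (3.07-fold lower, 2.72 to 3.47) and SPDEF 223 and 66 (2.53-fold lower, 1.92 to 3.39). BDNF, the neurotrophin, went from 2215 to 592 counts (2.81-fold lower, 2.56 to 3.08) and was called lower in MDA-MB-435 too (58 and 10 counts, 4.66-fold lower, 2.36 to 10.2). ADAMTS15, a matrix protease, went from 2186 to 413 (3.97-fold lower, 3.57 to 4.42), and was also called lower there at 16 and 2 counts. THBD, the anticoagulant thrombomodulin, went from 684 to 256 (2.005-fold lower, 1.73 to 2.32). CAVIN2, a caveolar coat protein, went from 989 to 244 (3.04-fold lower, 2.64 to 3.51). FOXQ1, SPDEF, BDNF, ADAMTS15, THBD and CAVIN2, like CYP24A1 above, were named from the called genes after their values were seen.

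Of the 34 restricted genes that rose, 28 had at most 3 counts in each MDA-MB-435 library. Among the 6 largest rises named, HSPA6, NRCAM, F2RL2 and ZNF382 met the limit of 20 times only with their level after CPYPP, since their control level alone lay below it. Others of the 34, such as ZNF483 and NPR3, did so too. Some, such as ADM2 (0.269 CPM in the control), passed the limit of 1 CPM in the same way. NRCAM, a neuronal cell adhesion molecule, went from 32 to 153 counts (6.37-fold, 4.33 to 9.64), and F2RL2, a protease-activated receptor of the thrombin group, from 115 to 282 (3.27-fold, 2.62 to 4.10). RASD1, a dexamethasone-induced small GTPase, went from 54 to 133 (3.28-fold, 2.38 to 4.59), MED12L, a Mediator subunit, from 41 to 101 (3.28-fold, 2.26 to 4.84) and ZNF382, a zinc finger repressor, from 51 to 129 (3.37-fold, 2.42 to 4.76). ZNF382 overlaps ZNF529 on the opposite strand. The rises with the most counts apart from HSPA6, named after their values were seen, were those of KITLG, the KIT ligand (956 and 1484 counts, 2.07-fold, 1.91 to 2.25, against 21 and 32 counts and 1.897-fold, 1.06 to 3.46, in MDA-MB-435), of TNFRSF10D, a decoy receptor of the death ligand TRAIL (665 and 1202, 2.41-fold), and of MERTK, a receptor tyrosine kinase for engulfment of dead cells (312 and 494, 2.11-fold, 1.83 to 2.44). SLC40A1, the iron exporter ferroportin, went from 117 to 246 counts (2.80-fold, 2.24 to 3.52), and it, MERTK and TNFRSF10D had no count in MDA-MB-435.

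The restricted genes named for their level per length kept their level within 2-fold. TMSB4X, an actin monomer-binding peptide, was at 733 and 607 FPKM (27837 and 17316 counts, 0.829 of the control, 0.814 to 0.845), and IGFBP4, which binds insulin-like growth factors, at 675 and 506. ANKRD1 was at 583 and 703 FPKM and F3 at 712 and 421, the widest change of the 5. PRDX1, a peroxiredoxin that most cells make, was at 232 and 280 FPKM (8711 and 7879 counts, 1.21-fold, 1.17 to 1.24), and is listed at 0 in both MDA-MB-435 libraries. The source of that 0 was not tested, so its place among the restricted genes is uncertain.

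**Figure D5:**
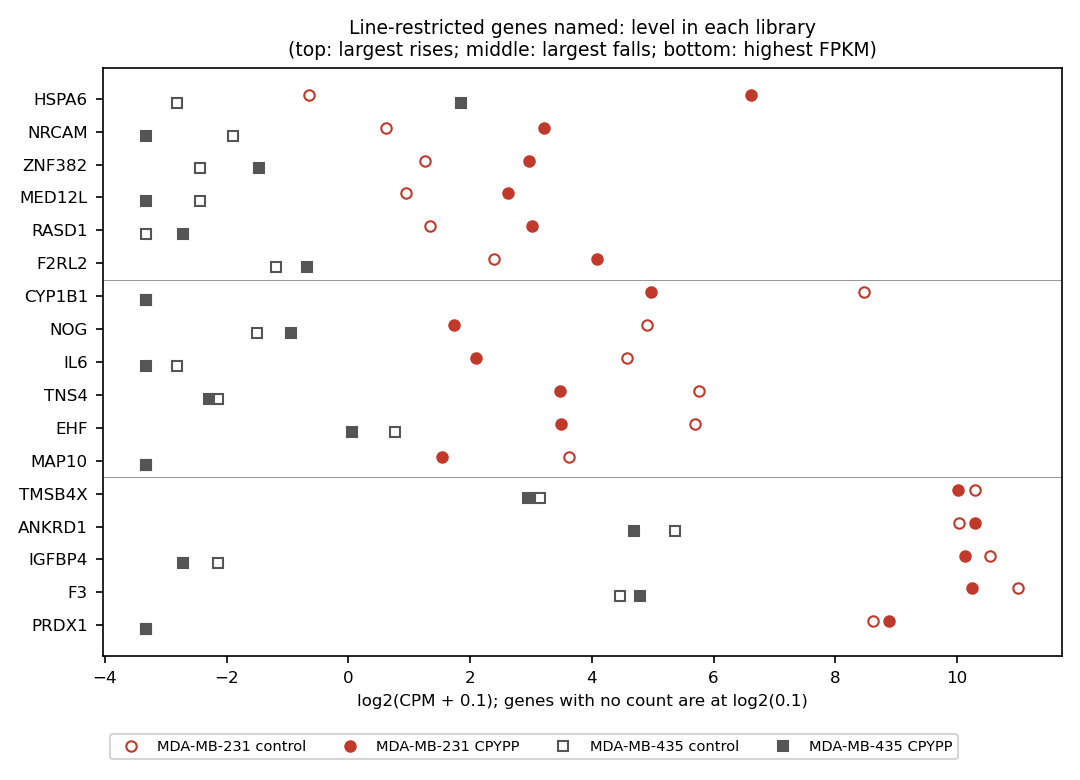
Level of the named line-restricted genes in each of the 4 libraries (horizontal axis, log2 of CPM plus 0.1), circles for MDA-MB-231 and squares for MDA-MB-435, open for control and filled for CPYPP; top, largest rises, middle, largest falls, bottom, highest FPKM. In the middle group CYP1B1 is the most abundant in the control and stays above the MDA-MB-435 libraries after CPYPP, and in the bottom group open and filled circles lie close together.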

How the data were processed

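Poly(A) RNA was sequenced in 4 libraries, a control and a CPYPP library for each line (MDA-MB-231, MDA-MB-435). The authors deposited raw read counts per gene, with positions and exon lengths and no normalization. The submitters' processing notes name cutadapt 1.9.1, HISAT2 2.2.1, HTSeq 0.6.1, DESeq2 and GRCh37.p13, with no role for each. The positions are those of GRCh38, since 58241 of the 58254 identifiers shared with GENCODE 29 overlap their place there. The strand setting of the counting is not given in the sources used here, so overlapping genes on opposite strands cannot be told apart.

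Counts were scaled with TMM factors of edgeR 4.0.16 over the 4 libraries (0.998 and 0.974 for the MDA-MB-231 control and CPYPP libraries, 1.05 and 0.980 for those of MDA-MB-435) in R 4.3.3, and analysed in Python 3.11.15 with pandas 2.3.3, scipy 1.17.1 and matplotlib 3.10.9. FPKM was computed from the scaled counts and the deposited exon lengths. The fold change is the ratio of scaled counts, with counts of 3 or fewer set to 3, and its 95% Clopper-Pearson interval covers counting error only. PCR copies are not independent molecules, so the interval may be too narrow even for that. In the CPYPP library of MDA-MB-231, 3 counts amount to 0.179 CPM. The intervals widen as counts fall, so statements on genes near 10 counts are the least firm. With 1 library per group no test of the treatment was possible and no p-value is given. A gene was called at a fold over 2 with an interval apart from 1. The procedure was run on simulated counts that held counting error alone. They had no spread between cultures, so the run cannot show whether a call would recur.

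The 42 gene lists, the 5 marker lists and the members were chosen with earlier results of these data known. The text names the 10 largest rises and 10 largest falls among called protein-coding genes with a mean of at least 50 counts, the same among genes with a small change in MDA-MB-435, the 6 largest rises, 6 largest falls and 6 highest FPKM among line-restricted genes, and list members, called ones first, of which 3 are not reported here. Other genes are said to be named after their values were seen. The xenobiotic motif was added after results had been seen. Alternatives concerned scaling (total counts, DESeq2 1.42.0 size factors, upper quartile), the count filter, the fold limit, a binomial test, assumed biological coefficients of variation of 0.2 and 0.4, protein-coding genes alone and the limits of the sets. CYP1B1, NOG and HMOX1 have no entry in the promoter table.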

Additional observations from a re-analysis of the deposited data

Results flagged for a closer look

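CCN2 was singled out because its changes in the lines were opposite, with 3.49-fold (3.36 to 3.62) in MDA-MB-231 and 0.368 of the control (0.322 to 0.420) in MDA-MB-435. The ratio of the fold changes was 9.47. With 1 library per condition the difference was not tested, and no replicate shows whether either change recurs.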

How the results depend on the processing

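With 1 library per condition, depth bounds the counting error and says nothing of the spread between cultures, and leaving out a library was not possible. No paired analysis was possible because the labels give no replicate numbers and each condition has 1 library.

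Against 694 higher and 542 lower genes, at least 10 counts in both libraries gave 433 and 304, a fold over 4 gave 201 and 118, and protein-coding genes alone gave 420 and 263, where in each case the alternative leaves fewer genes eligible. An edgeR exact test under a presumed biological coefficient of variation (BCV), at 0.2, gave 111 and 52, and with 0.4 it gave 4 (HMOX1, HSPA1A, HSPA1B and HSPA6) and 0. For the genes with a small change in MDA-MB-435 (45 and 17), a fold over 4 gave 3 (DDX43, HMCN1 and NCR3LG1) and 2 (FGF2 and STEAP1B), the BCV of 0.2 gave 3 and 0, that of 0.4 gave 0 and 0, and a narrower limit for a small change in MDA-MB-435 gave 9 and 6. For the line-restricted genes (34 and 67), a fold over 4 gave 7 and 13, the BCV of 0.2 gave 11 and 18, that of 0.4 gave 1 (HSPA6) and 0, and a minimum of 10 CPM, added after seeing the data, gave 7 and 26. Total counts, DESeq2 size factors, the upper quartile, no filter, the binomial test, a limit of 50 times MDA-MB-435 and TMM within each line (also added after seeing the data) left the counts they concern within 1.5 times. Removing the filter could not change these counts. With counts of 3 or fewer set to 3, no gene under 10 counts in both MDA-MB-231 libraries can be called. Higher genes were 56.1% of calls, and between 52.1% and 64.1% under the other scalings. The scalings moved a list median by at most 0.0852 on the log2 scale, and 10 counts in both libraries by up to 0.364 (metallothioneins and zinc export, to −0.48). Of list medians, 1 near 0 changed sign with total counts and 4 with the upper quartile. Of 204 recomputed fold changes of named genes, 15 moved beyond their counting interval under total counts or the upper quartile and 0 reversed.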
